A study of Mus musculus with 12 samples.

Results

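Mitosis and spindle genes encode the machinery with which a cell enters mitosis, attaches its chromosomes to microtubules, separates them and divides. The 43 genes described here are a list of such genes that was chosen with earlier results of these data known. Their mRNA was compared in thymocytes of AND-TCR–transgenic and C57BL/6 mice, and their shares are set beside those of all genes as description only. Every probe set whose only annotated gene symbol was one of the 43 was used. Ccnb1 and Hmmr had no such probe set, so 41 genes were on the arrays, among 15964 genes with a probe set of their own, and they were read by 77 of 29131 such probe sets. A probe set was tested when both of a group's arrays exceeded a detection limit, in either group or in both, which held for 55 of the 77 probe sets and for 40 of the 41 genes. Ttk, a checkpoint kinase, was above the limit on 1 array of each group and was not tested. Of the 40 tested genes 36 exceeded the limit on every 1 of the 4 arrays, and none failed to do so on both arrays of AND-TCR–transgenic mice.

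The samples were total thymocytes of adult mice of 2 kinds. The first kind was AND-TCR–transgenic mice, which carry a rearranged T cell receptor specific for MHC class II and whose thymocytes are positively selected in the H-2b background. The second was C57BL/6 mice without the transgene. Both groups had 2 hybridizations on U74Av2, U74Bv2 and U74Cv2 arrays of Affymetrix, so that 4 arrays of each of these 3 types were read and 12 in all. The methods call the 2 experiments independent, and the labels number the hybridizations, but whether separate mice were used is stated in neither, so that p-values here measure the spread between hybridizations, which may be technical.

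In the thymus, cell division is concentrated in a few stages. CD4-CD8- cells that have rearranged the TCR β-chain divide in a burst as they become CD4+CD8+ double-positive (DP) blasts, after which most DP thymocytes and most mature single-positive (SP) thymocytes are small resting cells. A rearranged TCR transgene is present from the start of this sequence. Genes of mitosis are transcribed mainly in G2 and M phase, and many of them share promoter elements, among them the CCAAT box and the cell cycle genes homology region (CHR).

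Promoter sequences showed how widely the members shared these elements. Windows from 250 bases before to 50 bases after a gene's start were found for 36 of the 43 genes (RefSeq, build GRCm38.p6), and Aurkb, Ccna2, Cdc25c, Incenp, Kif20a, Stmn1 and Tpx2 had none in the table. The windows were searched on both strands for the CHR, whose letters are TTTGAA, and for the CCAAT box, whose letters are CCAAT. Where they lie on the strand opposite to the gene they appear below as TTCAAA and, for the CCAAT box, as ATTGG. A CHR and a CCAAT box can overlap by 1 base at most. The first 4 sequences below hold both motifs and belong to members that were lower on both AND-TCR–transgenic arrays, and Birc5 was such a member with neither motif. They were chosen after their values were seen. Capitals mark the motifs, and each sequence runs 5′ to 3′ in the direction of the gene.
Cdk1, chr10:69352863-69353162: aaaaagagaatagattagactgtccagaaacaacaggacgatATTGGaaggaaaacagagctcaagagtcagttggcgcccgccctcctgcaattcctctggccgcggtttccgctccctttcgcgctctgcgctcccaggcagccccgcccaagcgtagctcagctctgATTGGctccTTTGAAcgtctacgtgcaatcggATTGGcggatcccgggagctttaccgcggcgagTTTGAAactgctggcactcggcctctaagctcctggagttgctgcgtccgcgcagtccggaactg
Cdc20, chr4:118437294-118437593: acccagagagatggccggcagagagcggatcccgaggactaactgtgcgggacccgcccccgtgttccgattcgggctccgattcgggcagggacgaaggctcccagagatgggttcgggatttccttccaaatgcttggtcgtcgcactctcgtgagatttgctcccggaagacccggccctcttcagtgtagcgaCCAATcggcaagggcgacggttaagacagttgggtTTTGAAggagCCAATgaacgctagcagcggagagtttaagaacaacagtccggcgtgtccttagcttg
Bub3, chr7:131560120-131560419: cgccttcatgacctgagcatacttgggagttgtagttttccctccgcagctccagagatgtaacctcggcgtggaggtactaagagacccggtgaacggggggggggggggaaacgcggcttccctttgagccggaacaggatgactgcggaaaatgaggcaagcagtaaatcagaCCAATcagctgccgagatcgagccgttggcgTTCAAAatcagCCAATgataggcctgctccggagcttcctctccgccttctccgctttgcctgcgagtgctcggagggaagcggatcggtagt
Mki67, chr7:135716330-135716629: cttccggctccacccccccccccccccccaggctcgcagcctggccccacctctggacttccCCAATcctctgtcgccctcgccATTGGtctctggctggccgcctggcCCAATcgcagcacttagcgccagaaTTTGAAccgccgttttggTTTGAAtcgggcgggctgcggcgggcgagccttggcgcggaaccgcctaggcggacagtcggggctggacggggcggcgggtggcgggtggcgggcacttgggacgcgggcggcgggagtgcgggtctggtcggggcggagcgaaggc
Birc5, chr11:117848987-117849286: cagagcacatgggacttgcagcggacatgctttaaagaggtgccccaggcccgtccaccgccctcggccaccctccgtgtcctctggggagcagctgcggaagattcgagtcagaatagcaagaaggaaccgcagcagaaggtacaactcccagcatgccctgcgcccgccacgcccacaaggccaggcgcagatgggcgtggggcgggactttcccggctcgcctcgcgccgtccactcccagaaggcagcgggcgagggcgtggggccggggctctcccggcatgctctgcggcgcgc

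In Cdk1 (on the minus strand) a CHR began 15 bases and another 71 bases before the start, with CCAAT boxes at 48, 80 and 208 bases before it. In Cdc20 (minus strand) the CHR began 18 bases before the start between CCAAT boxes at 53 and 8 bases. In Bub3 (plus strand) the CHR lay on the other strand, 43 bases before the start, between CCAAT boxes at 74 and 32 bases. In Mki67 (minus strand) CHRs at 116 and 98 bases followed 3 CCAAT boxes at 188, 166 and 141 bases. These promoters thus placed a CHR shortly downstream of a CCAAT box. In Birc5 (plus strand) neither spelling was in the window.

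The CHR was in 24 of the 36 member promoters (66.7%), in 11.9% of the 6375 promoters of tested genes and in 18.1% of all 27025 promoters. CCAAT was in 28 (77.8%) of the member promoters, in 38.6% of those of tested genes and in 37.9% of all. Both were in 22 (61.1%) of the member promoters, 5.15% of those of tested genes and 7.12% of all. A CHR that began 20 to 40 bases after the start of a CCAAT box, a spacing chosen after the positions were seen, was in 14 (38.9%) of the member promoters, 0.91% of those of tested genes and 0.918% of all. In the plot of positions, the matches of the members lay close to the start site. Among 31 promoters of S phase and replication genes 4 (12.9%) held the CHR and 17 (54.8%) held CCAAT, and among 79 promoters of other mitosis genes 30 (38.0%) held the CHR, 42 (53.2%) held CCAAT, 18 (22.8%) held both and 7 (8.86%) had the spacing given above. The share with a CHR was thus lower in the S phase genes and intermediate in the other mitosis genes. These matches describe letters in a window and are no evidence of binding.

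**Figure D1:**
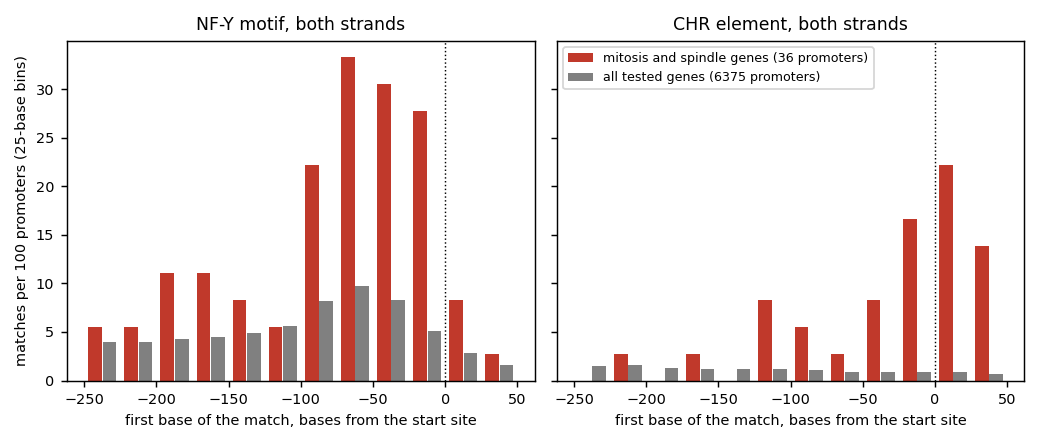
Matches to the CCAAT box (left, titled NF-Y motif after the factor that binds it) and to the CHR (right), on either strand, per 100 promoters in 25-base bins (y axis) against the position of their first base relative to the start site (x axis). Red bars are the 36 member promoters and grey bars the 6375 promoters of tested genes, and the member bars are highest within 100 bases of the start.

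The comparison of AND-TCR–transgenic with C57BL/6 thymocytes asked how mRNA levels differ when thymocytes bear a positively selected transgenic receptor. Intensities are linear values of probe sets, some of them negative, that the authors had scaled to a common mean. The detection limit was 421 on U74Av2, 869 on U74Bv2 and 1579 on U74Cv2. Log2 fold changes are AND-TCR–transgenic over C57BL/6, with 2 hybridizations a group, so that negative values mean a lower level in AND-TCR–transgenic thymocytes. Where a gene had more than 1 tested probe set, the one with the highest mean stands for it. Values with an error in parentheses are log2 fold changes ± SE, and other values are intensities, first hybridization before second. None of the 40 genes reached an adjusted p under 0.05 in limma in either direction, at which 0.612% of 7843 tested genes were lower and 0.65% were higher (0.568% and 0.483% of the 12844 tested probe sets), and the smallest adjusted p of a member was 0.165 for Bub1b.

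The members nevertheless lay mostly on 1 side. The log2 fold change was negative in 36 of 40 genes, where 3698 of all 7843 tested genes were so. Its median was -0.37, beside 0.03 over all tested genes. In the first hybridizations the median was -0.36 and in the second -0.43. Both AND-TCR–transgenic arrays were under both C57BL/6 arrays in 25 genes (62.5%), where 20.9% of all tested genes were so, and above them in 2 genes, Incenp and Kif23 (5.0%), where 24.0% of all were so. At an unadjusted p under 0.05 in limma 15 genes were lower (37.5%) and 1, Incenp, was higher (2.5%), against 6.62% and 7.91% of all tested genes. Within the pairs of hybridizations with the same number, 29 genes (72.5%) were lower in both and 2 (5.0%) were higher in both, where 27.2% and 31.1% of all tested genes were so. The count of 15 rested on all 4 hybridizations and fell when any 1 of them was left out. With the first or the second of C57BL/6 mice left out, the share of members lower was no greater than that of all tested genes. In the 4 fits that left out 1 hybridization, the median of the members lay between -0.45 and -0.34, beside 0.01 to 0.06 over all tested genes. In total thymocytes, fewer dividing cells and less of these mRNAs per cell cannot be told apart.

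**Figure D2:**
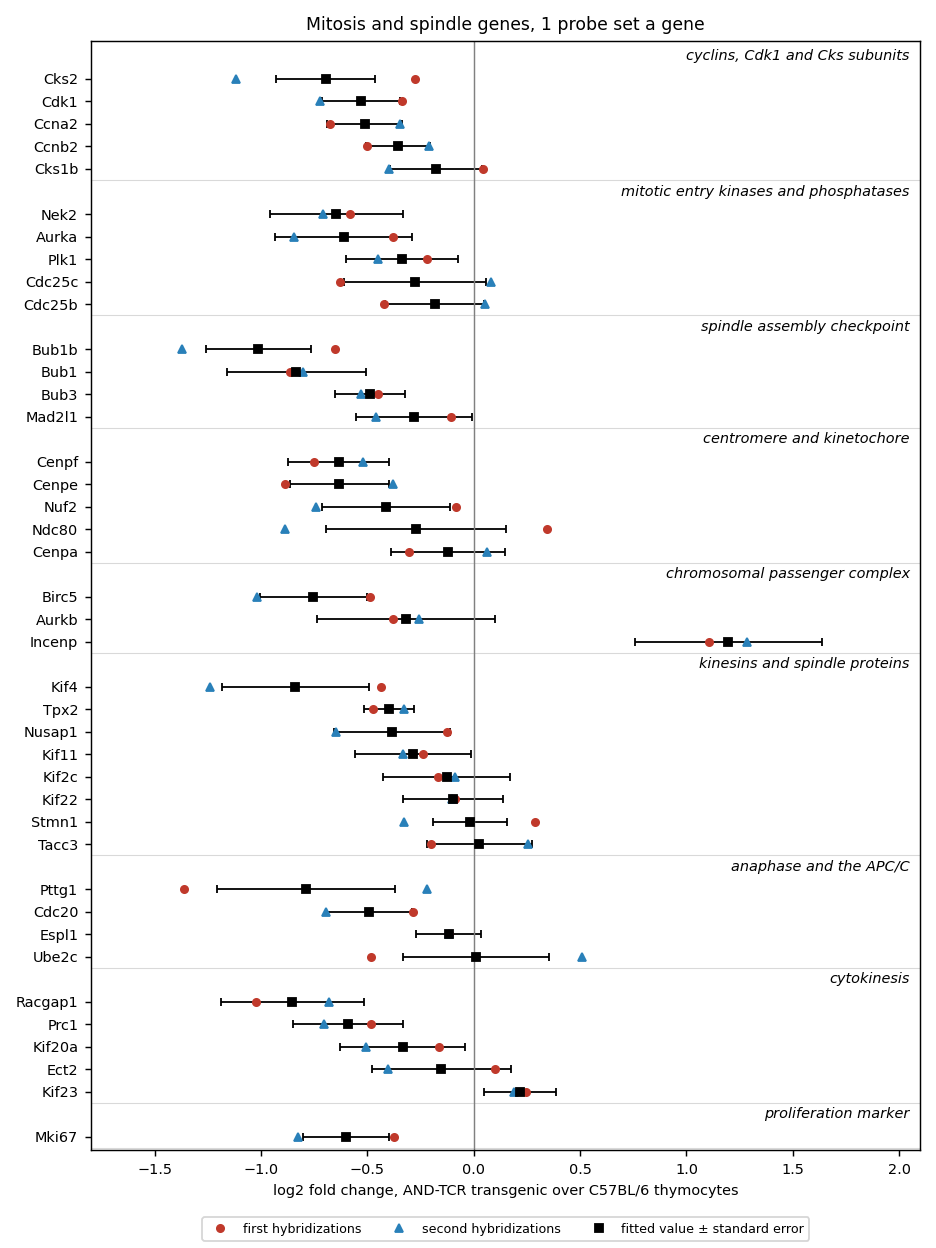
Log2 fold change between AND-TCR–transgenic and C57BL/6 thymocytes (x axis, positive where AND-TCR–transgenic is higher) for the 40 tested mitosis and spindle genes, grouped by role (y axis). Black squares with bars are the fitted value ± SE, red circles the first and blue triangles the second hybridizations. Of the squares 36 are left of 0 (3698 of all 7843 tested genes were negative), and Incenp stands alone at 1.20.

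Among the cyclins and partners of Cdk1, the kinase that drives entry into mitosis, all 5 tested genes had negative log2 fold changes (median -0.51). Over all tested genes 3698 of 7843 were negative. In 4 of the 5 the groups did not overlap, where 20.9% of all tested genes were lower without overlap. Cdk1 itself read 3745 and 2984 in AND-TCR–transgenic thymocytes, against 4728 and 4927 in C57BL/6 thymocytes, a log2 fold change of -0.53 ± 0.18 (SE; unadjusted p = 0.0223, adjusted p = 0.261 in limma). Ccna2, cyclin A2, which acts in S phase and early mitosis, read 2855 and 3297 in AND-TCR–transgenic and 4567 and 4199 in C57BL/6 thymocytes (log2 fold change -0.51 ± 0.18). Ccnb2, a B-type cyclin of mitosis, read 6269 and 7609.7 in AND-TCR–transgenic and 8884 and 8814 in C57BL/6 thymocytes (-0.36 ± 0.15), and its unadjusted p of 0.0498 in limma was close to the threshold. Both AND-TCR–transgenic readings of these 3 genes were under both C57BL/6 readings. The Cks proteins are small subunits that bind Cdk1 complexes. Cks2 read 3635 and 2453 in AND-TCR–transgenic and 4398 and 5325 in C57BL/6 thymocytes (-0.70 ± 0.23), with the second pair of hybridizations much farther apart than the first. Cks1b overlapped, at 2606 and 2439.6 in AND-TCR–transgenic and 2527 and 3217 in C57BL/6 thymocytes.

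The kinases and phosphatases of mitotic entry had a median of -0.34 and none of the 5 had an unadjusted p under 0.05 in limma. Nek2, a kinase of centrosome separation, read 1187 and 926 in AND-TCR–transgenic and 1777 and 1516 in C57BL/6 thymocytes. Aurka, the Aurora A kinase of centrosomes and spindle poles, read 779 and 685 in AND-TCR–transgenic and 1014 and 1229.8 in C57BL/6 thymocytes. Plk1, a kinase that acts at entry, spindle assembly and cytokinesis, read 1625 and 1384 in AND-TCR–transgenic and 1894 and 1893 in C57BL/6 thymocytes. In these 3 the groups did not overlap, with log2 fold changes of -0.65 ± 0.31, -0.61 ± 0.32 and -0.34 ± 0.26. Of all tested genes 20.9% were lower without overlap. The 2 phosphatases that remove inhibitory phosphates from Cdk1 overlapped. Cdc25b read 2225 and 2784 in AND-TCR–transgenic and 2978 and 2686 in C57BL/6 thymocytes, and Cdc25c read 544 and 825 in AND-TCR–transgenic and 843 and 781 in C57BL/6 thymocytes.

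The spindle assembly checkpoint holds back anaphase until every kinetochore is attached, and its 4 tested genes had the lowest median of the role groups with several members, -0.66. Bub1b, which encodes the BubR1 part of the inhibitor of Cdc20, read 4549 and 2786 in AND-TCR–transgenic thymocytes, against 7148 and 7215 in C57BL/6 thymocytes. Its log2 fold change of -1.01 ± 0.25 was the most negative of the 40 members (unadjusted p = 0.00724, adjusted p = 0.165 in limma), 0.636 times the C57BL/6 level in the first hybridizations and 0.386 times in the second. Bub1, a kinetochore kinase of the same pathway, read 686 and 559 in AND-TCR–transgenic and 1249.9 and 975 in C57BL/6 thymocytes (-0.84 ± 0.33, with similar ratios of 0.549 and 0.573 in the 2 pairs). Bub3, the partner of both, read 8387 and 6778 in AND-TCR–transgenic and 11457 and 9775 in C57BL/6 thymocytes (-0.49 ± 0.16, unadjusted p = 0.0203 in limma). Mad2l1, the Mad2 protein that binds Cdc20, read 1953 and 1415 in AND-TCR–transgenic and 2101 and 1943 in C57BL/6 thymocytes, so that the first AND-TCR–transgenic array lay above the lower C57BL/6 array. In the Bub genes both AND-TCR–transgenic arrays were thus under both C57BL/6 arrays, as in 20.9% of all tested genes. In Mad2l1 the groups overlapped, though it too was lower in both pairs of hybridizations.

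Genes of the centromere and kinetochore, where microtubules attach, had a median of -0.41. Cenpe, a kinesin of the outer kinetochore, read 2143 and 3025 in AND-TCR–transgenic and 3962 and 3929.7 in C57BL/6 thymocytes (-0.63 ± 0.23). Cenpf, a large kinetochore protein of G2 and M phase, read 1776 and 2025 in AND-TCR–transgenic and 2989 and 2900.3 in C57BL/6 thymocytes (-0.63 ± 0.24). These 2 had an unadjusted p under 0.05 in limma, 0.0363 for Cenpe and 0.0388 for Cenpf, and with the hybridization number as a block that of Cenpf was 0.0732. Nuf2 and Ndc80 are 2 subunits of the microtubule-binding Ndc80 complex. Nuf2 read 1758 and 1494 in AND-TCR–transgenic and 1863 and 2497 in C57BL/6 thymocytes, without overlap. Ndc80 read 4308 and 2672 in AND-TCR–transgenic and 3389 and 4947 in C57BL/6 thymocytes, and its direction was opposite in the 2 pairs. Cenpa, the histone H3 variant that marks centromeres, read 1765 and 2647 in AND-TCR–transgenic and 2181 and 2537 in C57BL/6 thymocytes, which overlapped.

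**Figure D3:**
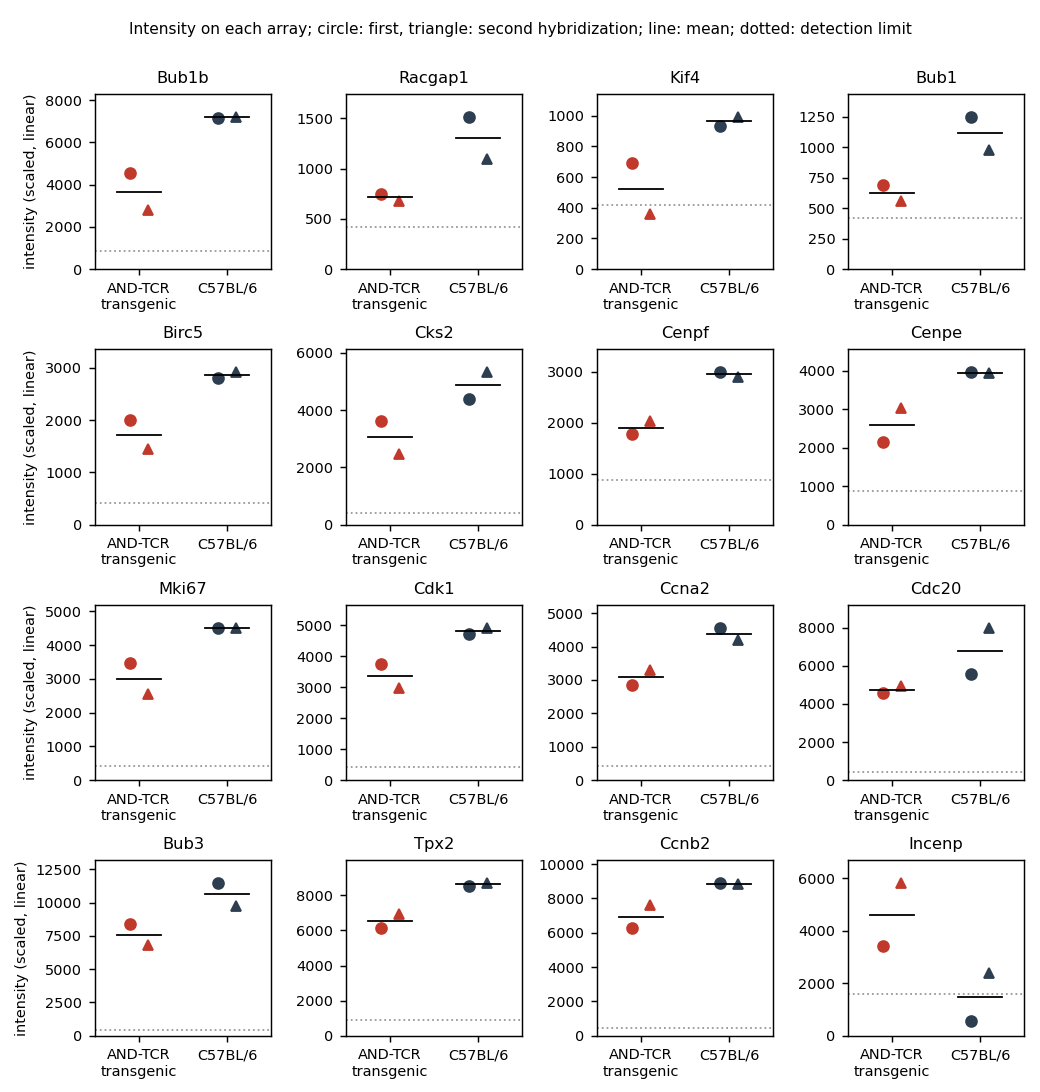
Intensity on each array (y axes, linear, starting at 0) of the 16 members with an unadjusted p under 0.05, AND-TCR–transgenic left of C57BL/6. Circles are first and triangles second hybridizations, lines group means and dotted lines the detection limit. The groups do not overlap in any panel, which the choice of panels by p-value favors, and only Incenp is higher in AND-TCR–transgenic thymocytes.

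The chromosomal passenger complex corrects faulty attachments and acts again in cytokinesis, and its 3 genes did not lie on 1 side. Birc5, the survivin subunit, read 2001 and 1440.3 in AND-TCR–transgenic and 2809.9 and 2919 in C57BL/6 thymocytes (-0.75 ± 0.25, unadjusted p = 0.0191, adjusted p = 0.247 in limma). Aurkb, the kinase of the complex, read 2922 and 4894 in AND-TCR–transgenic and 3805 and 5857 in C57BL/6 thymocytes, and the ranges overlapped although each AND-TCR–transgenic array was under the C57BL/6 array of the same number. The second tested probe set of Aurkb read 1041.5 and 91 in AND-TCR–transgenic and 802 and 602 in C57BL/6 thymocytes. Its directions were opposite in the 2 pairs, and its second AND-TCR–transgenic array was under the limit. Incenp, the scaffold subunit, read 3402 and 5815 in AND-TCR–transgenic and 573 and 2386 in C57BL/6 thymocytes on a U74Cv2 probe set, where the first C57BL/6 array was under the detection limit (log2 fold change 1.20 ± 0.44 with that array set to the limit, unadjusted p = 0.0303, adjusted p = 0.294 in limma). The 3 other tested probe sets of Incenp did not show this difference. The first read 1837 and 2004 in AND-TCR–transgenic and 2326 and 2975 in C57BL/6 thymocytes (-0.46 ± 0.24). Another read 1957 and 2554 in AND-TCR–transgenic and 2462 and 1930.1 in C57BL/6 thymocytes (0.04 ± 0.29), and the last read 419 and 940.0 in AND-TCR–transgenic and 932 and 743 in C57BL/6 thymocytes (-0.40 ± 0.43). The direction of Incenp therefore depended on the probe set.

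Kinesins and other spindle proteins were the largest role group, with 8 tested genes and a median of -0.21. Kif4, a chromokinesin, read 691 and 356 in AND-TCR–transgenic and 936 and 994 in C57BL/6 thymocytes, with the second AND-TCR–transgenic array under the limit (-0.84 ± 0.35 with that array set to the limit). Tpx2, which activates Aurora A on spindle microtubules, had the smallest SE of the 40 members, with readings of 6164 and 6923 in AND-TCR–transgenic and 8548 and 8695 in C57BL/6 thymocytes (-0.40 ± 0.12, unadjusted p = 0.0156, adjusted p = 0.226 in limma). Kif4 and Tpx2 were the 2 genes of this group with an unadjusted p under 0.05. Nusap1, a microtubule-bundling protein, read 5796 and 5429 in AND-TCR–transgenic and 6316 and 8508 in C57BL/6 thymocytes. Kif11, the kinesin that pushes the spindle poles apart, read 1433 and 1677 in AND-TCR–transgenic and 1689.7 and 2114 in C57BL/6 thymocytes. Kif2c, a kinesin that depolymerizes microtubules, read 1163 and 1238 in AND-TCR–transgenic and 1308 and 1315 in C57BL/6 thymocytes. These 3 were lower without overlap, as were 20.9% of all tested genes. Their log2 fold changes were -0.39 ± 0.27, -0.29 ± 0.27 and -0.13 ± 0.30, the last smaller than its error, and none had an unadjusted p under 0.05 in limma. Kif22, a chromokinesin, read 2856 and 3829 in AND-TCR–transgenic and 3041 and 4115 in C57BL/6 thymocytes. Stmn1, a tubulin-binding protein, read 21082 and 16027 in AND-TCR–transgenic and 17263 and 20089 in C57BL/6 thymocytes. Tacc3, a spindle protein, read 941 and 1396 in AND-TCR–transgenic and 1081 and 1172 in C57BL/6 thymocytes. These last 3 overlapped, with log2 fold changes between -0.10 and 0.03.

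Of the genes of anaphase, Cdc20, the activator of the anaphase-promoting complex, read 4558 and 4941 in AND-TCR–transgenic and 5561 and 8007 in C57BL/6 thymocytes (-0.49 ± 0.20, unadjusted p = 0.0442 in limma). Pttg1, securin, the inhibitor of separase, read 1367 and 2848 in AND-TCR–transgenic and 4054 and 3315 in C57BL/6 thymocytes, the first AND-TCR–transgenic array being under the limit (-0.79 ± 0.42 with that array set to the limit). Both were lower without overlap between the groups, as were 20.9% of all tested genes. Espl1, separase itself, which cleaves cohesin, read 5197 and 6075 in AND-TCR–transgenic and 5632 and 6597 in C57BL/6 thymocytes. Ube2c, the ubiquitin-conjugating enzyme of the anaphase-promoting complex, read 552 and 598 in AND-TCR–transgenic and 772 and 385 in C57BL/6 thymocytes, with the second C57BL/6 array under the limit. Espl1 and Ube2c overlapped between the groups.

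Cytokinesis genes held the second member that was higher without overlap. Racgap1, which with Kif23 forms centralspindlin at the spindle midzone, read 747 and 683 in AND-TCR–transgenic and 1518 and 1096 in C57BL/6 thymocytes (-0.85 ± 0.34, unadjusted p = 0.0383 in limma). Its partner Kif23 read 3719 and 3659 in AND-TCR–transgenic and 3142 and 3207 in C57BL/6 thymocytes (0.22 ± 0.17, unadjusted p = 0.244 in limma). The 2 parts of centralspindlin thus lay on opposite sides, and the Kif23 difference did not pass the unadjusted threshold. Prc1, which bundles the midzone microtubules, read 1647 and 1338 in AND-TCR–transgenic and 2299 and 2176 in C57BL/6 thymocytes (-0.59 ± 0.26). Kif20a, a midzone kinesin, read 1326 and 1113 in AND-TCR–transgenic and 1484 and 1579.7 in C57BL/6 thymocytes (-0.33 ± 0.29). Both were lower without overlap, as were 20.9% of all tested genes. Their unadjusted p-values in limma were above the threshold, 0.0542 for Prc1 and 0.294 for Kif20a. Ect2, the exchange factor that activates RhoA for the contractile ring, overlapped, at 1143 and 1124 in AND-TCR–transgenic and 1068 and 1489 in C57BL/6 thymocytes. Mki67, which encodes the proliferation marker Ki-67, read 3461 and 2549 in AND-TCR–transgenic and 4492 and 4515 in C57BL/6 thymocytes (-0.60 ± 0.20, unadjusted p = 0.0206, adjusted p = 0.253 in limma).

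Several tested probe sets measured the same gene in 11 members. A probe set below detection in AND-TCR–transgenic thymocytes could be tested only where C57BL/6 was higher, so directions were compared only among those detected on each of the 4 arrays. These were 42, of which 26 were lower and 1 was higher without overlap. With 1 probe set a gene, 24 of the 37 members with such a probe set were lower without overlap, where 20.2% of all such genes were so. More than 1 of the 42 was found in 4 members. In Mki67, Nusap1 and Plk1 the directions of these probe sets agreed, and in Incenp they did not. Nusap1 was lower without overlap on both, with log2 fold changes of -0.39 and -0.71. Tested probe sets of Pttg1 and Tacc3 also differed in direction, with some arrays below detection. A second probe set of Tacc3 read 391 and 360 in AND-TCR–transgenic thymocytes, both of them below detection, against 889 and 927 in C57BL/6 thymocytes, a difference of at least 2.16-fold with AND-TCR–transgenic lower, while the probe set with the higher mean showed 0.03 ± 0.25. The second probe set of Bub3 was likewise below detection in AND-TCR–transgenic thymocytes, at 269 and 395 against 1438 and 1412 in C57BL/6 thymocytes (at least 1.64-fold lower). That of Prc1 read 860.0 and 754 in AND-TCR–transgenic, both below detection, against 1198 and 1587 in C57BL/6 thymocytes (at least 1.59-fold lower). The filter fixed the direction of these probe sets of Tacc3, Bub3 and Prc1, so their direction is no further evidence of a lower level. The second probe set of Pttg1 read 1733 and 109 in AND-TCR–transgenic and 564 and 731 in C57BL/6 thymocytes, a spread within AND-TCR–transgenic arrays wider than the difference between groups. The second of Mki67 read 755 and 2076 in AND-TCR–transgenic and 2199 and 914 in C57BL/6 thymocytes and was similarly unsteady.

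**Figure D4:**
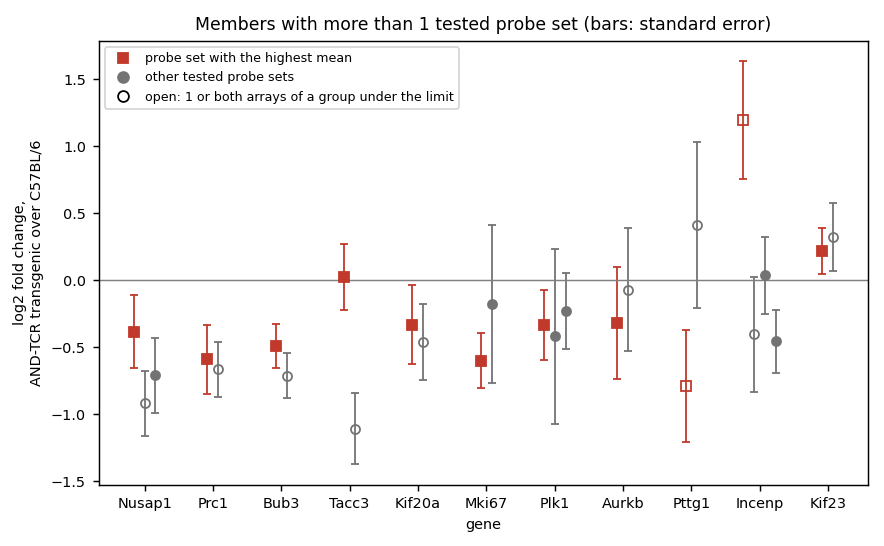
Log2 fold change between AND-TCR–transgenic and C57BL/6 thymocytes (y axis, bars are SE, positive where AND-TCR–transgenic is higher) for every tested probe set of the 11 members with more than 1 (x axis). Red squares mark the probe set with the highest mean, grey circles the others, and open symbols those with an array under the detection limit. Incenp, Pttg1 and Tacc3 have values on both sides of 0, and Kif23 is above 0 on both of its probe sets.

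Other genes of mitosis, a list of 97 that shares no gene with the 43, had 72 tested genes with a median log2 fold change of -0.29. This list too was chosen with earlier results known. Both AND-TCR–transgenic arrays were lower in 37 of them (51.4%) and higher in 6 (8.33%), where 20.9% and 24.0% of all tested genes were so. At an unadjusted p under 0.05 in limma 13 were lower (18.1%) and 2 were higher (2.78%), against 6.62% and 7.91% of all tested genes. At an adjusted p under 0.05, where 0.612% of all tested genes were lower, 1 was lower (1.39%). This was E2f2, a transcription factor of cell cycle genes, which read 2305 and 2173 in AND-TCR–transgenic thymocytes, against 6405 and 7185 in C57BL/6 thymocytes (-1.60 ± 0.16, adjusted p = 0.0213 in limma). Its adjusted p was between 0.189 and 0.391 when 1 hybridization was left out, with log2 fold changes between -1.68 and -1.52. Next were Mad1l1, the partner of Mad2 at kinetochores (5235 and 5589 in AND-TCR–transgenic against 9213 and 8805 in C57BL/6 thymocytes, adjusted p = 0.0593), Ckap2l, a spindle protein (2992 and 2452 in AND-TCR–transgenic against 4681 and 4913 in C57BL/6 thymocytes, adjusted p = 0.136), and Kif15, a spindle kinesin (3517 and 4006 in AND-TCR–transgenic against 5478 and 6704 in C57BL/6 thymocytes, adjusted p = 0.164 in limma).

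Genes of S phase and DNA replication gave the stage before mitosis. Of 38 such genes 31 were tested, with a median of -0.21. Without overlap 14 (45.2%) were lower and 1 (3.23%) was higher, where 20.9% and 24.0% of all tested genes were so. In limma 5 (16.1%) had an unadjusted p under 0.05, all of them lower, against 6.62% of all tested genes, and none passed the adjusted threshold. These 5 were Rrm2, a subunit of ribonucleotide reductase, Dut, which removes dUTP, Prim2, a subunit of primase, Orc6 of the origin recognition complex, and Mcm3 of the replicative helicase. Rrm2 read 3117 and 3607 in AND-TCR–transgenic and 4765 and 5861 in C57BL/6 thymocytes. The plot of cumulative shares shows the S phase genes and both lists of mitosis genes to the left of all tested genes. No test was made of a difference between these lists.

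**Figure D5:**
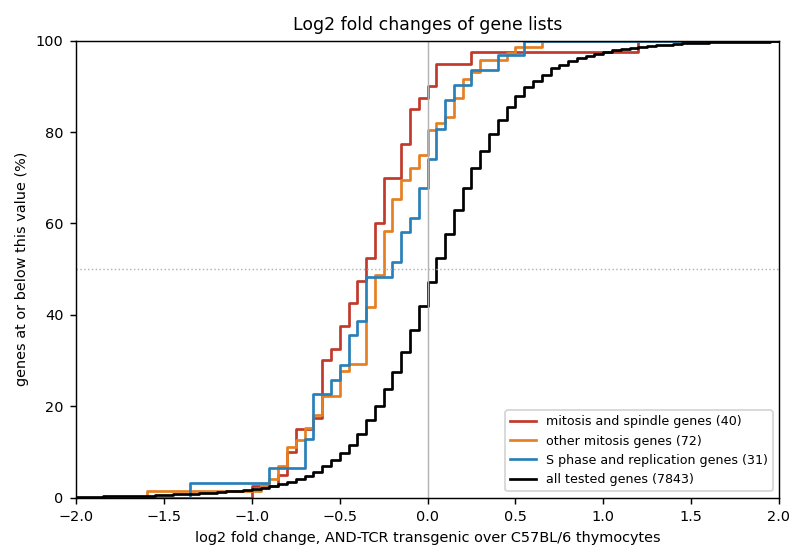
Share of genes (y axis, percent) with a log2 fold change (AND-TCR–transgenic over C57BL/6) at or below the value on the x axis, in steps of 0.05. Red is the 40 mitosis and spindle genes, orange 72 other mitosis genes, blue 31 S phase genes and black all 7843 tested genes, and the first 3 cross the dotted 50% line left of 0.

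By promoter motif, the median log2 fold change was -0.42 in the 20 tested members with both motifs and -0.41 in the 13 tested members with a promoter that lacked at least 1 of them. It was -0.40 in the 6 members with neither motif, which were Birc5, Mad2l1, Nuf2, Nusap1, Pttg1 and Tacc3. It was -0.65 in the 5 tested members with CCAAT alone and -0.20 in the 2 with the CHR alone, and no test was made between these small groups.

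Marker genes of thymocyte stages differed between the groups at the same time, and no cell counts were used here. All 13 tested markers of DP thymocytes had negative log2 fold changes (median -1.16), 7 of them passed an adjusted p under 0.05 in limma, and their summed intensity was 87706 and 98657 in AND-TCR–transgenic against 220398 and 219559 in C57BL/6 thymocytes. Rag1, which cuts receptor genes in DP cells, read 6545 and 6313 in AND-TCR–transgenic and 33115 and 28353 in C57BL/6 thymocytes (adjusted p = 0.00222 in limma). Of 10 tested markers of mature SP thymocytes 5 were higher at an adjusted p under 0.05 (median 1.59), with sums of 107263 and 97170 in AND-TCR–transgenic and 43331 and 42514 in C57BL/6 thymocytes. Of 12 markers of CD4-CD8- thymocytes and the pre-TCR stage 6 were tested, with a median of 0.03, while Il2ra, Kit, Cd44, Lyl1 and Spib were on the arrays and not tested. The Notch target Dtx1 was the 1 of these 6 that passed the adjusted threshold (log2 fold change 1.39, adjusted p = 0.0341 in limma). Its second tested probe set did not show this difference (0.18 ± 0.27), with opposite directions in the 2 pairs of hybridizations. Ptcra, the invariant chain of the pre-TCR, read 1436 and 1709 in AND-TCR–transgenic and 1607 and 1924 in C57BL/6 thymocytes, which overlapped. The part of these differences in the levels of the mitosis genes was not tested.

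Of 9 erythroid markers 2 were tested, with sums of 8435 and 6122 in AND-TCR–transgenic and 11025 and 13237 in C57BL/6 thymocytes, mostly from α-globin. This gene, Hba-a1, had a log2 fold change of -0.97 (unadjusted p = 0.00281 in limma), and that of the erythroid transcription factor Klf1 was 0.19. Of 8 B cell markers 6 were tested, with sums of 22115 and 23484 in AND-TCR–transgenic and 25206 and 26218 in C57BL/6 thymocytes, mostly from Ighm. Their log2 fold changes ran both ways, 4 negative and 2 positive, from -1.18 for Cd79a to 2.08 for Blk, and Blk and Pax5 were higher without overlap. Of 14 markers of macrophages and granulocytes 8 were tested, with sums of 9935 and 9096 in AND-TCR–transgenic and 6930.4 and 7741 in C57BL/6 thymocytes. Of 8 markers of thymic epithelium 2 were tested, and their sums overlapped. Xist, which is transcribed from the inactive X chromosome, read -53 and -99 in AND-TCR–transgenic and 2878 and 3001 in C57BL/6 thymocytes on U74Av2, and the Y-linked Eif2s3y read 1649 and 1529 in AND-TCR–transgenic and -110 and 13 in C57BL/6 thymocytes, so the groups also differed in sex-linked genes. The file headers give fluidics module 4 for every AND-TCR–transgenic and module 2 for every C57BL/6 array, so module and sex cannot be told apart from the transgene, and the header of the first C57BL/6 array of U74Av2 notes a repeated scan.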

How the data were processed

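The authors labeled total thymocyte RNA for Affymetrix U74Av2, U74Bv2 and U74Cv2 arrays and used Microarray Suite Version 4.0 on the scans. Per the deposited files, each probe set has a linear intensity, which was negative for 20.1% to 37.8% of the probe sets of an array. All arrays had a mean of 1000.4 to 1000.9 once 2% of the values at each end were trimmed, so they had been scaled together. Which kind of intensity was computed is not given in the sources used here. Precision is limited by how many arrays there were.

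Here 1 factor per array made these trimmed means equal within an array type (0.99995 to 1.00004). The detection limit was 2 noise SDs, and for the noise SD the median size of negative values was multiplied by 1.4826. Lower values were replaced by the limit and log2 was taken, so a fold against such a value is understated. Of 36701 probe sets other than controls 12844 passed the limit in both hybridizations of a group and entered the test in limma (version 3.58.1, in R 4.3.3, with lmFit, eBayes with a trend, 1 fit per array type), adjusted together by the Benjamini-Hochberg method. As each array type had its own normalization, levels were set across types only to choose the probe set with the highest mean for a gene. That choice placed 27 members on U74Av2, 8 on U74Bv2 and 5 on U74Cv2. Gene symbols came from the platform annotation, and probe sets with several symbols were left out. The script was tested on simulated data.

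The members, their roles and the other lists were chosen with earlier results of these data known. Every tested member is described, and from other lists at most 5 genes each, those with the smallest p, except Ptcra, Hba-a1, Klf1, Ighm, Cd79a, Blk, Pax5, Xist and Eif2s3y, which were chosen after their values were seen. According to the file headers, hybridizations with the same number were scanned on the same day in both groups. Their deviations from the group means correlated at 0.04, -0.12 and -0.23 on the 3 array types. Alternatives were quantile normalization, a limit of 4 noise SDs, a generalized log, no filter, all 4 arrays above the limit, no trend, a block for the hybridization number, the mean over probe sets and leaving out each hybridization. Promoters were the first listed window of each gene in RefSeq. Figures were drawn with matplotlib 3.10.9 in Python 3.11.15.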

Additional observations from a re-analysis of the deposited data

How the results depend on the processing

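The counts of members at an adjusted p under 0.05 stayed at 0 in limma under every alternative except the block that crossed the hybridization numbers, which was added after seeing the data and called 1 member lower, with 226 probe sets lower and 229 higher over all genes. The block with matching hybridization numbers left 14 members lower and 1 higher at an unadjusted p under 0.05 (15 and 1 without it), as Cenpf passed no longer, and changed no call at the adjusted threshold, while calls over all probe sets went up to 151 lower and 155 higher, beside 73 and 62 without the block. Over all probe sets the calls were 127 lower and 111 higher with the generalized log, 127 and 129 with all 4 arrays above the limit, 13 and 3 without a filter, 9 and 1 without a trend, and 0 with any hybridization left out.

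Leaving out 1 hybridization gave 1 to 8 members lower and 0 to 1 higher at an unadjusted p under 0.05, and a median of -0.45 to -0.34. The 1 member higher at an unadjusted p under 0.05 became 0 with a limit of 4 noise SDs, the generalized log, no filter, all 4 arrays above the limit and the mean over probe sets. The median was -0.43 with the generalized log. The 2 members higher without overlap became 1 with the generalized log, all 4 arrays above the limit and the mean over probe sets, which was counted after seeing the data.

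Tacc3 turned negative under quantile normalization (-0.0194), a limit of 4 noise SDs (-0.11), the generalized log (-1.19) and the mean over probe sets (-0.54), and Incenp under the generalized log (-0.45) and with all 4 arrays above the limit (-0.46). Another probe set had the highest mean in both of these cases of Incenp and for Tacc3 under the limit of 4 noise SDs and the generalized log, and the mean over probe sets takes in the second one of Tacc3. The cause under quantile normalization was not tested. With 1 hybridization left out, log2 fold changes ranged over 0 for Aurkb (-0.69 to 0.052), Cdc25c (-0.58 to 0.0237), Cenpa (-0.41 to 0.17), Ect2 (-0.39 to 0.0862), Kif22 (-0.32 to 0.12), Ndc80 (-0.62 to 0.0734), Stmn1 (-0.22 to 0.18), Tacc3 (-0.26 to 0.31) and Ube2c (-0.43 to 0.45). The other 30 members kept their sign in every alternative that gave a value for single genes, among them the 15 lower at an unadjusted p under 0.05. With all 4 arrays above the limit Kif4, Pttg1 and Ube2c had no value, and with a limit of 4 noise SDs Cdc25c and Ube2c had none. The crossed block was run for counts only. The adjusted p of E2f2 was 0.0567 without a filter and 0.0881 without a trend.

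With 1 hybridization left out, the lone remaining one of its group was assumed to vary like the others. The unfiltered fit left out probe sets at the limit on all 4 arrays.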
